A study of Mus musculus with 6 samples.

Results

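The mitochondrial uncoupling proteins are a small branch of the SLC25 carriers of the inner mitochondrial membrane. The genes described here are Ucp1 (ENSMUSG00000031710), Ucp2 (ENSMUSG00000033685), Ucp3 (ENSMUSG00000032942), Slc25a27 (UCP4, ENSMUSG00000023912) and Slc25a14 (UCP5, ENSMUSG00000031105). They were taken by symbol from a table of 36079 genes, and all 5 were found there. The table holds bulk messenger RNA from the temporal lobe (labelled only as brain) of kainic acid-treated epileptic mice; kainic acid activates glutamate receptors and provokes seizures. For 3 weeks 3 of these mice ate a ketogenic diet, which is rich in fat and poor in carbohydrate, and 3 ate chow, with 1 library per mouse. Mice of both diets received kainic acid, so the comparison is of diets within epileptic animals, and the labels state no strain, age or sex.

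UCP1 lets protons return across the inner membrane without making ATP, which releases heat, and it is the defining protein of brown fat. UCP2 is found in many tissues, among them spleen, gut and microglia, and UCP3 mainly in skeletal muscle, heart and brown fat. UCP4 and UCP5 are known from the brain, mostly from neurons, and their proton transport is debated. The ketogenic diet has been linked to uncoupling in the hippocampus of rodents, and the diet contrast of these genes is the comparison the design allows.

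Ucp2 and Ucp3 are neighbours on chromosome 7, on the same strand and 6905 bases apart in GENCODE M21, an annotation of the mouse build GRCm38. Their promoters are shown because the data gave log2 changes of opposite sign for this neighbouring pair. Each window runs from 250 bases before to 50 bases after the start, on the plus strand, from RefSeq on GRCm38.p6. Capitals mark AGGTCA, a half-site of the elements bound by PPAR, RXR and thyroid hormone receptors, or GGGCGG, the GC box bound by SP1. Each was searched on both strands, where they read TGACCT and CCGCCC.
Ucp3 promoter, chr7:100472741-100473040: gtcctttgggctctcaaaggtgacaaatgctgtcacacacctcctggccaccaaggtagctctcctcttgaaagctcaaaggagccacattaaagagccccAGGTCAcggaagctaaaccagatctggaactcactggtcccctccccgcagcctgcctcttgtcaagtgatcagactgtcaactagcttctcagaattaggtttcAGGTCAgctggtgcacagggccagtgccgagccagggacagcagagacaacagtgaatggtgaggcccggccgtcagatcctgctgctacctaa
Ucp2 promoter, chr7:100493108-100493407: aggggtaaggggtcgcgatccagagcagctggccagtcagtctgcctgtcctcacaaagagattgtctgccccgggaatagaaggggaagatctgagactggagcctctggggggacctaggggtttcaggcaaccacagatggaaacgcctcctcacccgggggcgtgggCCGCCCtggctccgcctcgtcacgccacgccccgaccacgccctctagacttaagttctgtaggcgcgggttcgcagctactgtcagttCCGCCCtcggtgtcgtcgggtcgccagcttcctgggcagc
The Ucp3 window held AGGTCA 2 times and no GC box, and the Ucp2 window held 2 GC boxes and no AGGTCA. The Ucp1 window, on chromosome 8, held AGGTCA once. Of 32851 promoter windows of this length, 16.3% held AGGTCA at least once and 1.81% held it 2 or more times. A GC box was held at least once by 35.7% and 2 or more times by 19.5%. The 3 windows of Slc25a14, on the X chromosome, held 1 or 2 GC boxes and no AGGTCA. A match of letters describes the window and is not a measured binding site. Slc25a27 lies on chromosome 17.

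The unit of expression is FPKM, in which fragments are divided by the length of the gene and by the size of the library, so that levels can be compared between genes per length. Library totals behind the FPKM ran from 40227092 to 56325232 reads. Neuron markers, from Rbfox3 and Snap25 to Map2, summed to 1020 to 1250 FPKM in ketogenic-fed mice and 1090 to 1210 FPKM in chow-fed mice, so neuronal transcripts were abundant in every library. Markers of brain regions set single libraries apart. Thalamic markers stood highest in chow replicate 1, with a median deviation of 2.69 on the log2 scale from the mean of the 6 libraries, against 0.57 or less elsewhere. Striatal markers were high in ketogenic replicate 2 (2.07) and chow replicate 2 (2.36), and choroid plexus markers were high in ketogenic replicate 3 and chow replicates 1 and 3 (1.04 to 1.87).

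In temporal lobe tissue the brain-type members made up nearly the whole family. Slc25a14 averaged 18.9 ± 1.80 FPKM in ketogenic-fed mice and 17.1 ± 4.61 FPKM in chow-fed mice (SD, n = 3 each). Slc25a27 averaged 15.9 ± 0.501 FPKM in ketogenic-fed mice and 15.4 ± 1.56 FPKM in chow-fed mice. Ucp2 averaged 3.55 ± 0.796 FPKM in ketogenic-fed mice and 2.64 ± 0.454 FPKM in chow-fed mice. Ucp3 averaged 0.479 ± 0.0422 FPKM in ketogenic-fed mice and 1.10 ± 0.478 FPKM in chow-fed mice. Ucp1 averaged 0.0456 ± 0.0416 FPKM in ketogenic-fed mice and 0.0586 ± 0.0138 FPKM in chow-fed mice. Slc25a14 and Slc25a27 together gave 87.8% to 90.9% of the summed FPKM of the 5 genes in ketogenic libraries and 86.0% to 91.2% in chow libraries. The sum itself was 35.6, 40.6 and 40.5 FPKM in ketogenic replicates 1, 2 and 3, against 34.5, 39.3 and 35.2 FPKM in chow replicates 1, 2 and 3.

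The order of levels was Slc25a14, Slc25a27, Ucp2, Ucp3 and Ucp1. The ranges over the 6 libraries overlapped only for Slc25a14 and Slc25a27, which thus did not differ beyond their spread. Within a library, Slc25a14 was 1.10, 1.28 and 1.17 times Slc25a27 in ketogenic replicates 1, 2 and 3, against 0.789, 1.62 and 1.01 times in chow replicates 1, 2 and 3. Only in chow replicate 1, the library with thalamic markers, was Slc25a27 the higher one.

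**Figure D1:**
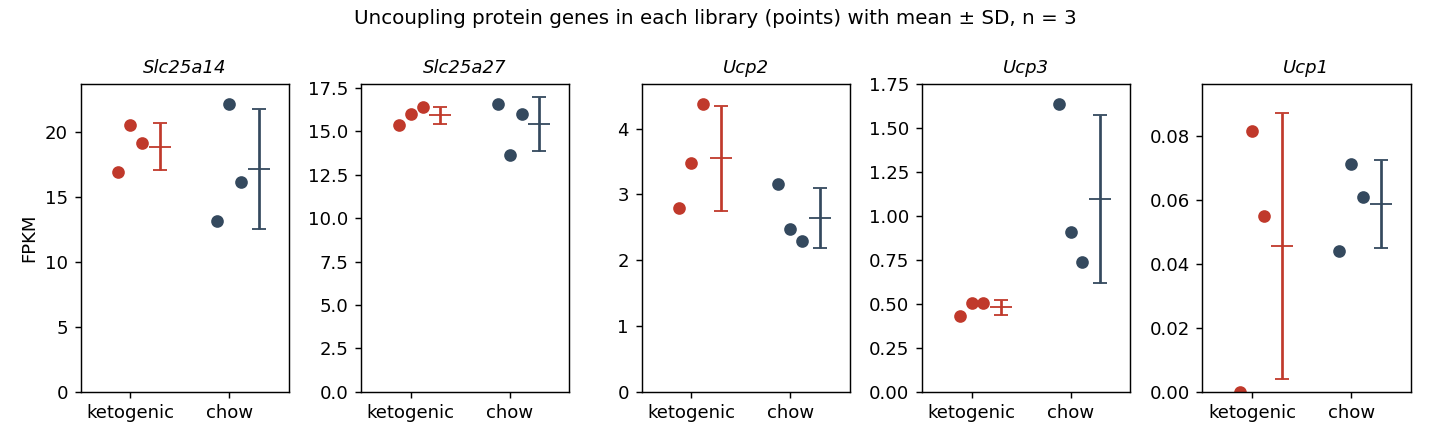
FPKM of each uncoupling protein gene, with 1 point per library and mean ± SD (n = 3) beside the points, ketogenic left of chow; each panel has its own axis from 0. The Ucp3 points of the ketogenic diet, 0.430 to 0.504 FPKM, lie below all chow points, 0.737 to 1.64 FPKM, and in the other 4 genes the diets overlap.

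The levels depend on the length used per gene. For these genes the deposited FPKM were divided by the length of all annotated exons joined together, which for Ucp2 is 6989 bases, while its principal transcript Ucp2-202 has 3988 bases. Scaled to the principal transcript, a length chosen after seeing the data, Ucp2 averaged 6.22 ± 1.40 FPKM in ketogenic-fed mice and 4.63 ± 0.795 FPKM in chow-fed mice (SD, n = 3 each). On that scale Slc25a14 averaged 25.3 ± 2.42 FPKM in ketogenic-fed and 23.0 ± 6.19 FPKM in chow-fed mice. Slc25a27 averaged 21.7 ± 0.682 FPKM in ketogenic-fed and 20.9 ± 2.12 FPKM in chow-fed mice. Lengths differed by 1.75-fold for Ucp2, by 1.28- to 1.36-fold for Ucp3, Slc25a14 and Slc25a27, and not for Ucp1. The order of the means was the same on both scales.

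Among the 50 genes of the table with an Slc25a symbol or named Ucp1 to Ucp3, Slc25a14 ranked at place 12 and Slc25a27 at place 13 by mean FPKM. Carriers under any other symbol were not ranked. Ucp2 ranked at 28, Ucp3 at 42 and Ucp1 at 48. The leading carriers were the ADP/ATP exchangers Slc25a4, at 197 ± 5.78 FPKM in ketogenic-fed mice and a mean of 212 FPKM in chow-fed mice, and Slc25a5, with a mean of 105 FPKM in ketogenic-fed mice and 122 FPKM in chow-fed mice. Slc25a14 and Slc25a27 thus lay about an order of magnitude below Slc25a4. Their neighbours in the order were Slc25a51 above, at a mean of 18.6 FPKM over the 6 libraries, and Slc25a39 below, at 13.7 FPKM, and the ranges of neighbouring genes overlapped.

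**Figure D2:**
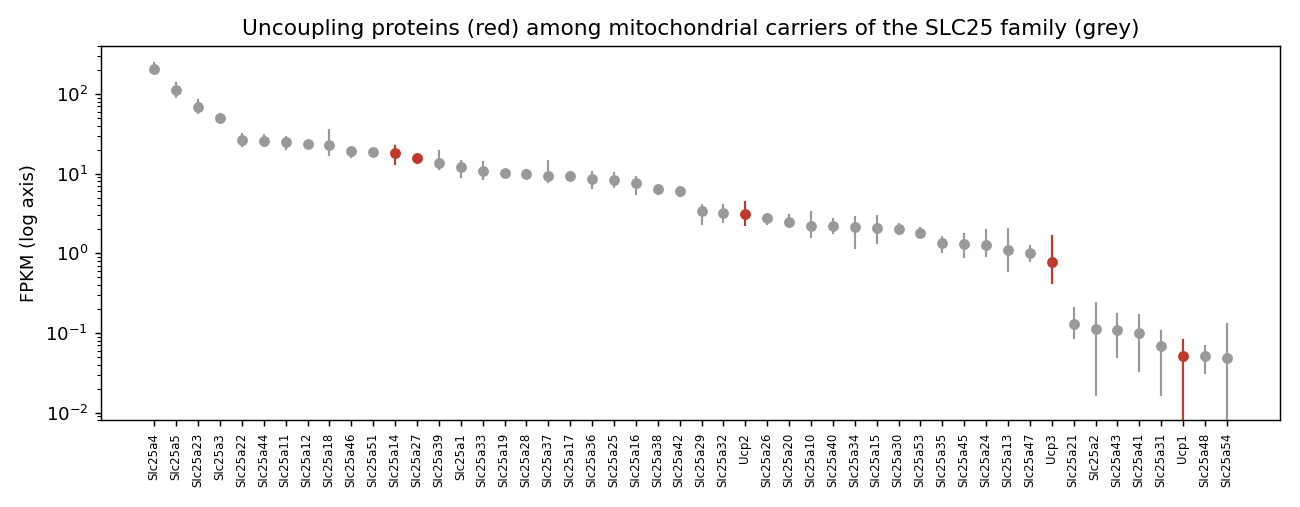
Mean FPKM over 6 libraries (points) and the lowest to highest library (lines) of the 50 genes with an Slc25a symbol or named Ucp1 to Ucp3. The axis is logarithmic, genes are ordered by mean, and lines that end at the foot of the panel reach 0. The uncoupling proteins, in red, spread from place 12 (Slc25a14, 18.0 FPKM) to place 48 (Ucp1, 0.0521 FPKM).

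The diet contrast was then read for each gene. None of the 4 tested members passed limma's test at an adjusted p under 0.05, and among all 16009 genes tested 0% passed in either direction. At an unadjusted p under 0.05 there was 1 member, Ucp3, of the 4 tested, where 5.38% of all genes reached that level. Ucp3 passed the expression filter only through its chow values, so this p-value is no support for a decrease. With voom on recovered reads, too, no gene passed at the adjusted threshold.

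Ucp3, the muscle-type member, was lower in every ketogenic library than in any chow library. It had 0.430, 0.504 and 0.503 FPKM in ketogenic replicates 1, 2 and 3, against 1.64, 0.910 and 0.737 FPKM in chow replicates 1, 2 and 3. The ketogenic libraries lay close together and the chow libraries were spread, with chow replicate 1 highest. These values rest on 76, 71 and 70 reads in the ketogenic libraries, against 286, 147 and 93 reads in the chow libraries. Both mates of a fragment were often counted, as described for Ucp1 below, so the independent molecules can be fewer. The log2 change was -0.66 ± 0.23 (SE) with a 95% interval from -1.22 to -0.11, on the log2(FPKM + 0.5) scale, which understates changes of genes this low. Its limma p was 0.0267 before and 0.752 after Benjamini-Hochberg adjustment, and an exact two-sided permutation test gave p = 0.1, the smallest that 3 against 3 mice allow. All ketogenic libraries lay below all chow libraries in 7.49% of the genes tested. Ucp3 entered the test only through its chow values, as its ketogenic mean was under the filter of 0.5 FPKM. Without chow replicate 1 the log2 change was -0.43, and with voom on recovered reads it was -1.14.

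Markers of heart muscle and of endothelium were also lower on average in the ketogenic libraries. Of 9 tested heart genes all 9 had a negative log2 change, with a median of -1.24 against -0.04 over all genes tested. In 8 the ketogenic libraries were lower with no overlap between diets, where 7.49% of all genes were. The list was chosen with earlier results of these data known, so its direction is no independent evidence. The whole list summed to 8.53 to 19.5 FPKM in ketogenic-fed mice and 26.7 to 53.6 FPKM in chow-fed mice. The ventricular light chain Myl3, myoglobin (Mb), the natriuretic peptide Nppb and the troponin Tnni3 had log2 changes of -1.27, -1.54, -1.02 and -1.42, none past the adjusted threshold (0.752 each). Nppb had a ketogenic mean of 0.189 FPKM, under the filter of 0.5 FPKM. It entered the test, and the counts above, only through its chow values. Cardiac myosin Myh6 had 1.40, 1.75 and 3.30 FPKM in ketogenic replicates 1, 2 and 3, against 8.25, 4.09 and 4.81 FPKM in chow replicates 1, 2 and 3. Chow replicate 1 was thus the highest library for Myh6 as for Ucp3, but ketogenic replicate 3 stood above the other ketogenic libraries only for Myh6. With the heart marker score as a covariate, a choice made after seeing the data, the log2 change of Ucp3 was -0.06 ± 0.40 (SE). That score differed between the diets itself, so diet and heart markers cannot be told apart in 6 libraries.

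Of 9 endothelial markers 8 had a negative log2 change, with a median of -0.31, where 9105 of all 16009 genes had a negative one. In 5 of them all ketogenic libraries lay below all chow libraries, against 7.49% of all genes. The endothelial list, too, was chosen with earlier results known and is no independent evidence. The receptors Kdr and Tek had log2 changes of -0.51 and -0.52, the transporter Abcb1a -0.34 and the adhesion molecule Pecam1 -0.35. Summed endothelial markers were 96.9 to 114 FPKM in ketogenic-fed mice and 91.8 to 130 FPKM in chow-fed mice. The part of endothelium in the Ucp3 values was not tested. In bulk tissue, fewer cells of a type and less RNA per cell cannot be told apart.

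Skeletal muscle markers did not separate the diets in the same way. The list summed to 9.29 to 11.2 FPKM in ketogenic-fed mice and 7.94 to 12.5 FPKM in chow-fed mice, 5 of its 12 genes were tested, and 2 of these had positive and 3 negative log2 changes (median -0.09). Creatine kinase Ckm had 0.158, 0.336 and 0.348 FPKM in ketogenic replicates 1, 2 and 3, against 0.949, 0.473 and 0.683 FPKM in chow replicates 1, 2 and 3, while skeletal actin Acta1 had a log2 change of 0.47. The calcium pump Atp2a1 (-0.89), the light chain Mylpf (-0.23) and the enolase Eno3 (0.14) complete the named genes of that list. Atp2a1 passed the filter only through chow replicate 1, at 2.65 FPKM. It had 0.0558 and 0.243 FPKM in chow replicates 2 and 3, and 0.0715, 0.147 and 0.0518 FPKM in ketogenic replicates 1, 2 and 3. Thalamic markers, highest in chow replicate 1, also had negative log2 changes in all 12 genes (median -1.52), and the smallest p-values among them belonged to Zic1 (-1.95), Tcf7l2 (-2.29), Synpo2 (-1.66) and Gbx2 (-1.44). Gbx2 and Lef1 of that list had ketogenic means of 0.0467 and 0.43 FPKM, under the filter of 0.5 FPKM. Both entered the test only through their chow values. With the thalamic score as a covariate the log2 change of Ucp3 was -0.37 ± 0.24 (SE).

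Ucp2, the broadly expressed member, had a positive log2 change with overlapping groups. It had 2.79, 3.48 and 4.38 FPKM in ketogenic replicates 1, 2 and 3, against 3.15, 2.47 and 2.29 FPKM in chow replicates 1, 2 and 3. Chow replicate 1 lay above ketogenic replicate 1, and ketogenic replicate 3 was the highest. The log2 change was 0.36 ± 0.19 (SE) with a 95% interval from -0.09 to 0.80 (limma, adjusted p = 0.752, and p = 0.2 in the exact permutation test). Without ketogenic replicate 3 it was 0.21.

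Markers of microglia, a brain cell type known to transcribe Ucp2, had no common direction. Of 15 microglial genes 8 had positive and 7 negative log2 changes, with a median of 0.00, and no gene kept the diets apart. The microglial markers summed to 191 to 229 FPKM in ketogenic-fed mice and 188 to 265 FPKM in chow-fed mice, and the log2 change was 0.34 for Tmem119 and -0.25 for Fcrls. With the microglial score as a covariate the log2 change of Ucp2 was again 0.36. Of 12 leukocyte and border macrophage markers 5 were tested, with 1 positive and 4 negative log2 changes (median -0.07), and S100a9 (-0.51) and Lyz2 (-0.21) were lower on average on the ketogenic diet and Cd74 (0.20) higher. The chow libraries were widely spread for S100a9, at 7.29, 0 and 2.57 FPKM in replicates 1, 2 and 3. Its ketogenic replicates 1, 2 and 3 had 0.884, 1.36 and 1.12 FPKM, and the SE of its log2 change was 0.93. The list summed to 9.59 to 12.4 FPKM in ketogenic-fed mice and 11.3 to 17.4 FPKM in chow-fed mice.

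Markers of colon epithelium, a tissue that also transcribes Ucp2, were higher in ketogenic libraries. All 8 tested genes of that list had positive log2 changes (median 1.23), and 7 were higher with no overlap between diets, where 4.90% of all genes were. Clca1, Zg16, Spink4 and Krt19 had chow means of 0.486, 0.266, 0.171 and 0.184 FPKM, under the filter of 0.5 FPKM. These genes entered the test only through their ketogenic values, so their direction and lack of overlap are no support for a difference. The 11 genes of the list summed to 23.6 to 33.9 FPKM in ketogenic-fed mice and 7.21 to 8.70 FPKM in chow-fed mice. The secreted lectin Zg16 had a log2 change of 1.38 and the mucus protein Clca1 one of 1.29, beside Lypd8 (2.32) and Mptx1 (1.67), and none passed the adjusted threshold. The profiles of Ucp2 and of the colon markers parted in ketogenic replicate 1, with deviations from the mean of -0.10 for Ucp2 and 0.43 for the list. They parted also in chow replicate 1, at 0.05 for Ucp2 and -0.72 for the list. This list was written with these leading genes known, so its direction is no independent evidence. With its score as a covariate, chosen after seeing the data, the log2 change of Ucp2 was -0.50 ± 0.67 (SE). The score separates the diets completely, so diet and colon markers cannot be told apart.

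**Figure D3:**
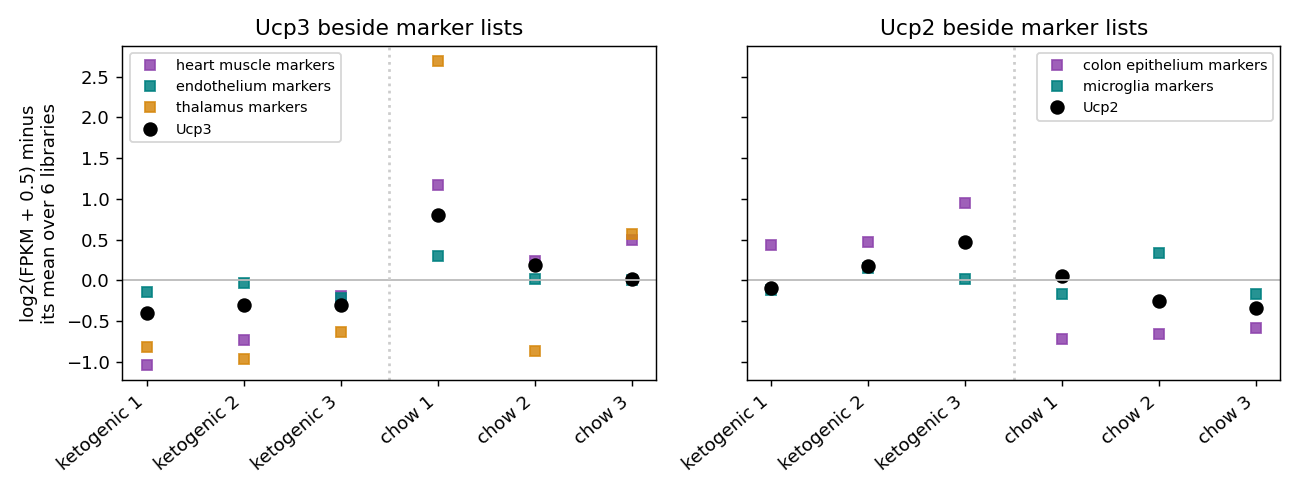
Deviation of log2(FPKM + 0.5) from the mean over 6 libraries, in each library, for Ucp3 (left) and Ucp2 (right) as black circles and for the median of marker lists as squares. Ucp3 and heart markers are highest in chow replicate 1 (0.80 and 1.17) and below 0 in all ketogenic libraries, and Ucp2 and colon markers are both highest in ketogenic replicate 3 (0.47 and 0.95) but on opposite sides of 0 in ketogenic replicate 1 (-0.10 and 0.43) and chow replicate 1 (0.05 and -0.72).

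The balance of Ucp2 and Ucp3 is given per library as a description only. The ratio of Ucp2 to Ucp3 FPKM was 6.48, 6.90 and 8.70 in ketogenic replicates 1, 2 and 3, against 1.93, 2.72 and 3.11 in chow replicates 1, 2 and 3. The ratio joins 2 genes whose own contrasts are given above, and neither was called, so it gets no test. Ucp3 entered the test only through its chow values, and Ucp2 overlapped between diets. Reads could also be shared with genes on the other strand, since no strand setting is recorded. Dnajb13, which overlaps Ucp2 in the annotation, ran from 0.0845 to 0.537 FPKM over the 6 libraries, and Gm10603, which overlaps Ucp3, from 0.201 to 0.455 FPKM.

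Slc25a14, the member with the highest mean FPKM, varied between libraries more than between diets. It had 16.9, 20.5 and 19.2 FPKM in ketogenic replicates 1, 2 and 3, against 13.1, 22.2 and 16.2 FPKM in chow replicates 1, 2 and 3. Both the lowest and the highest library were chow libraries. The log2 change was 0.16 ± 0.20 (SE) with a 95% interval from -0.31 to 0.64 (limma, adjusted p = 0.822). It was -0.01 without chow replicate 1 and 0.36 without chow replicate 2. The thalamic score as a covariate gave -0.16. Over the 6 libraries, striatal markers were highest in chow replicate 2 and ketogenic replicate 2, which also had the highest Slc25a14 levels, and thalamic markers in chow replicate 1, which had the lowest. The part of dissection in these values was not tested.

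Slc25a27 was the steadiest of the tested members. It had 15.4, 16.0 and 16.4 FPKM in ketogenic replicates 1, 2 and 3, against 16.6, 13.6 and 16.0 FPKM in chow replicates 1, 2 and 3. Only chow replicate 2 stood apart, on the low side. The log2 change was 0.05 ± 0.11 (SE), and its 95% interval from -0.20 to 0.31 was the narrowest of the 4 genes (limma, adjusted p = 0.893). Without chow replicate 2 it was -0.03. Its SD over the 6 libraries was 0.10 on the log2 scale, against 0.27 for Slc25a14, 0.29 for Ucp2 and 0.45 for Ucp3.

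Ucp1, the brown fat member, was at the limit of detection. It had 0, 6 and 4 reads in ketogenic replicates 1, 2 and 3, against 4, 6 and 4 reads in chow replicates 1, 2 and 3. A count of 0 allows up to 3 reads, or 0.0326 FPKM in ketogenic replicate 1, and this limit covers counting error only. Every read number above 0 was even, as were 68.4% of all read numbers from 1 to 20 in the table, so both mates of a fragment were often counted and the independent molecules were fewer. If both mates of each fragment were counted, 3 fragments are 6 reads and the limit in ketogenic replicate 1 is 0.0651 FPKM. With a mean under 0.5 FPKM it was not in the fit, and an exact two-sided permutation test of log2(FPKM + 0.5) gave a difference of -0.04 (p = 0.8). A diet difference was not detectable at this depth. Other genes of brown fat were low or known also from brain. Cidea averaged 2.13 FPKM in ketogenic-fed and 1.94 FPKM in chow-fed mice, and Elovl3 0.0076 FPKM in ketogenic-fed and 0.0156 FPKM in chow-fed mice. The fat cell hormone Adipoq had 0.257, 0.161 and 0.848 FPKM in ketogenic replicates 1, 2 and 3 while listed at 0 in all chow libraries. With a mean of 0.211 FPKM over the 6 libraries Adipoq was below the filter and not tested, and a value of 0 does not show absence. Of the 11 genes of that list 5 were tested, 2 with positive and 3 with negative log2 changes (median -0.16), and it summed to 6.40 to 13.4 FPKM in ketogenic-fed mice and 7.74 to 13.5 FPKM in chow-fed mice. The muscle and brown fat subunit Cox7a1 had a log2 change of -1.04, Fabp4 0.74, Cox8b -0.62 and Prdm16 -0.16. Of the 5 tested genes 1 was higher without overlap (Fabp4), where 4.90% of all genes were. Likewise 1 was lower without overlap (Cox7a1), where 7.49% of all genes were.

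**Figure D4:**
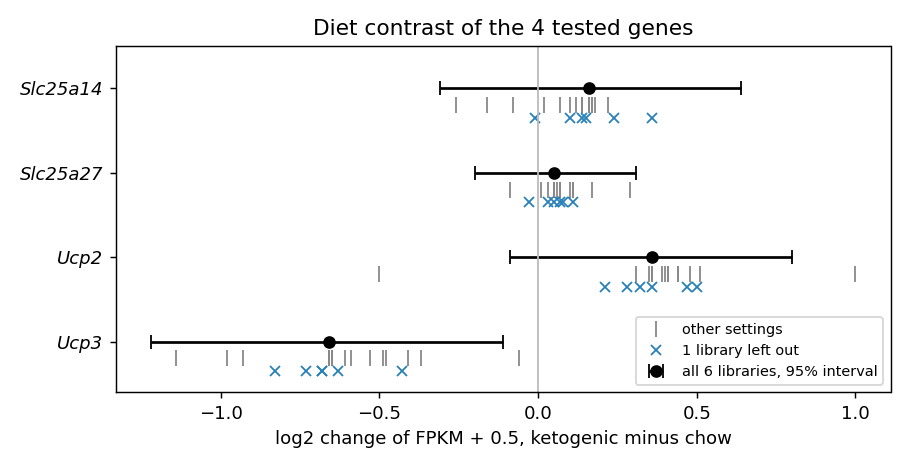
Log2 change of FPKM + 0.5, ketogenic minus chow, of the 4 tested genes with all 6 libraries and its 95% interval (black), under the other settings (grey ticks) and with each library left out (blue crosses). The interval of Ucp3 lies below 0, from -1.22 to -0.11, and those of the other 3 genes include 0. Ucp3 passed the expression filter only through its chow values.

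Other mitochondrial carriers had no common direction. Of the 38 tested genes with an Slc25a symbol outside the uncoupling proteins, 17 had positive and 21 negative log2 changes. Their median was -0.09 against -0.04 over all genes tested, and none passed. All ketogenic libraries lay above all chow libraries in 5 of them, where 4.90% of all genes did, and below in 4, where 7.49% did. The smallest p-values belonged to the iron carrier Slc25a28 (log2 change 0.28), the basic amino acid carrier Slc25a29 (0.42), the glutamate carrier Slc25a22 (0.34) and Slc25a40 (-0.32). Among the close relatives of the uncoupling proteins, Slc25a30, also called KMCP1, averaged 2.14 FPKM in ketogenic-fed mice and 1.94 FPKM in chow-fed mice (log2 change 0.12). The dicarboxylate carrier Slc25a10 (0.05), Slc25a11 (0.14), Slc25a4 (-0.09) and Slc25a5 (-0.22) overlapped between diets too. Of the 5 tested close relatives 3 had positive and 2 negative log2 changes (median 0.05), and the testis form Slc25a31 was below the filter.

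Known regulators of uncoupling protein genes gave no call either. Of 16 genes 6 had positive and 10 negative log2 changes, with a median of -0.09. The coactivator Ppargc1a averaged 8.08 ± 1.74 FPKM in ketogenic-fed mice and 9.82 FPKM in chow-fed mice (log2 change -0.28). The fatty acid receptors Ppara (-0.11), Ppard (-0.23) and Pparg (0.15), the orphan receptor Esrra (-0.23) and the mitochondrial deacetylase Sirt3 (0.02) all overlapped between diets. Of the 16 regulators 1 was higher without overlap, a share near the 4.90% of all genes. This was the thyroid hormone receptor Thra, at 104, 114 and 127 FPKM in ketogenic replicates 1, 2 and 3, against 66.9, 99.6 and 84.3 FPKM in chow replicates 1, 2 and 3 (log2 change 0.47, limma adjusted p = 0.752). Thra overlaps the clock gene Nr1d1 on the opposite strand, so reads of the pair may be mixed. Rxra (0.25), Sirt1 (-0.19) and Thrb (0.45) were the other regulators with the smallest p-values, beside Ppargc1a.

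Enzymes that remove superoxide and peroxide in mitochondria, a process to which uncoupling is often tied, gave no call. Of 9 tested genes 4 had positive and 5 negative log2 changes (median -0.07), and all overlapped between diets. Superoxide dismutase Sod2 averaged 18.1 ± 2.15 FPKM in ketogenic-fed mice and 21.5 FPKM in chow-fed mice (log2 change -0.25). Thioredoxin reductase Txnrd2 (-0.24), glutaredoxin Glrx2 (-0.12) and peroxiredoxin Prdx5 (-0.14) followed. The transhydrogenase Nnt, which is deleted in part in C57BL/6J mice, was listed at 0.016 to 0.0759 FPKM in ketogenic-fed mice and 0.0248 to 0.051 FPKM in chow-fed mice.

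Genes with the most similar profile over the 6 libraries were found by the root mean square difference of centred log2 levels. For Slc25a14 these were Enox1, Zfp46, the phosphatase regulator Phactr3, Smyd5 and the cyclic AMP phosphodiesterase Pde4b, at 0.018 to 0.062. For Ucp3 they were the transcription factor subunit Taf13, the junction molecule Jam2, Abhd3, the integrin Itga6 and the non-muscle myosin Myh14, at 0.091 to 0.104. For Ucp2 they were the ribosomal gene Rps28, Trp53inp1, Hes6, Rxra and the proteasome assembly factor Psmg4, at 0.086 to 0.104. For Slc25a27, which varied little, they were the haem enzyme Ppox, Clcc1, the translation factor Eif2b4, Mocs2 and Chp1, at 0.035 to 0.039. With 6 libraries such likeness describes these samples only.

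The remaining marker lists were read as a description of the tissue. Cortical excitatory neuron markers had 9 positive and 2 negative log2 changes (median 0.64), striatal markers 10 and 2 (0.45), neuron markers 4 and 6 (-0.06), and hypothalamic markers 4 and 3 of 7 tested (0.04). Astrocyte markers had 2 positive and 7 negative log2 changes (median -0.08), and all 8 oligodendrocyte (-0.45) and all 10 choroid plexus (-1.07) markers had negative ones. Over all genes tested, 9105 of 16009 had a negative log2 change. The scores of the lists overlapped between diets. Oligodendrocyte scores ran from -0.75 to 0.37 in ketogenic and from -0.27 to 1.03 in chow libraries, highest in chow replicate 1. Choroid plexus scores ran from -1.38 to 1.31 in ketogenic and from -1.29 to 1.87 in chow libraries. Cortical scores ran from -0.43 to 0.86 in ketogenic and from -1.09 to 0.44 in chow libraries. No gene of these lists passed the adjusted threshold.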

How the data were processed

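The authors deposited a table of FPKM per gene, 1 column for each of 6 mice. The submitters' processing notes name HISAT2, Subread with featureCounts, and GRCm39. Versions, annotation, strand setting and the handling of multiply aligned reads are not given in the sources used. A gene's FPKM, multiplied by the joined exon length in GENCODE M21 and by a library total, gave whole reads for 98.3% of 33125 genes above 0 with a length (tolerance 0.005). M21 is an annotation of GRCm38 and served for lengths, neighbours and the gap between Ucp2 and Ucp3; the coordinates printed are those of RefSeq promoter windows on GRCm38.p6, and none come from the deposited table. Other genes were set to the smallest whole numbers (tolerance 0.001), and 33848 of 33862 genes above 0 had reads, so that a tested gene had a median of 931 reads per library. Symbols were matched by gene identifier for 35175 genes.

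The test covered 16009 genes, those averaging 0.5 FPKM or more over the 6 libraries. It used limma (version 3.58.1, R version 4.3.3; lmFit, eBayes with trend) on log2(FPKM + 0.5), diet as the only term, two-sided, Benjamini-Hochberg adjusted over all genes. The SE given with a log2 change comes from limma. Ucp1, below the filter, had an exact permutation test. The fit was also tried on simulated reads with large known changes and a fixed spread shared by all genes. Those reads held no differences between dissections, so the trial does not show how the fit performs on libraries like these. The 5 members, the 19 gene lists and the tests were chosen with earlier results of these data known. The direction of a list is therefore no independent evidence. The genes named were the members, 11 carriers and regulators, the list genes with the smallest p-values and the 5 nearest profiles per tested member. Marker scores are the median deviation of a list's genes from their mean over the libraries. Every pair of libraries differed by more than counting noise (mean chi-square per gene 41.3 or more). No batch is given in the labels.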

Additional observations from a re-analysis of the deposited data

How the results depend on the processing

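No gene of the table and no uncoupling protein gene was called under any of the 19 other settings or with any of the 6 libraries left out, so only values moved. With each library left out, the log2 change ran from -0.83 to -0.43 for Ucp3, from 0.21 to 0.50 for Ucp2, from -0.01 to 0.36 for Slc25a14 and from -0.03 to 0.11 for Slc25a27, and the difference of Ucp1 from -0.084 to 0.025. Ucp1 turned positive without ketogenic replicate 1, Slc25a14 negative without chow replicate 1 and Slc25a27 negative without chow replicate 2. Slc25a14 was also negative with the thalamic (-0.16), heart (-0.26) and colon (-0.08) marker scores as covariates, and the colon score turned Slc25a27 to -0.09 and Ucp2 to -0.50. The heart and colon scores were added after seeing the data, and the cause was not tested. Under the other settings Ucp3 ran from -1.14 with voom on recovered reads to -0.06 with the heart score, with a lowest adjusted p of 0.408, and a filter of 2 FPKM removed it. Ucp2 reached 1.00 with the heart score (lowest adjusted p over its settings 0.434). Deviations of equal replicate numbers correlated at -0.04, 0.48 and -0.21, and only number 2 matched itself best. The libraries also differed in their region markers, so these values cannot decide whether the numbers pair the mice. With a replicate block the log2 changes stay the same by design, as every number holds a library of each diet. The limma adjusted p-values were then 0.700 for Ucp3, 0.707 for Ucp2, 0.753 for Slc25a14 and 0.904 for Slc25a27, and 0 genes were called. With 3 mice per diet, the interval of Ucp2 still holds log2 changes up to 0.80 and that of Slc25a14 up to 0.64.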
